A study of Mus musculus with 6 samples.

Results

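Circular RNAs of the zinc finger protein genes, the mouse genes whose symbol is Zfp followed by a digit, made up 117 of the 10023 circRNA entries measured in mouse aortas. They were taken from the deposited circRNA table by host gene symbol, after Ensembl gene ids had been replaced by symbols, and Zfp609 was left out. They came from 55 of 3981 host genes and held 634 of 37393 back-spliced reads over 6 aortas, or 1.7% of the reads from 1.17% of the entries. The aortas were from male ApoE-/- mice on a C57BL/6 background, 6 weeks old at the start, which were fed a high-fat diet (HFD) or a chow diet for 12 weeks, with 3 aortas per diet. All mice lacked apolipoprotein E, so the chow diet group was not a wild-type group, and the whole aorta was one bulk sample. The labels name RNase R, an enzyme that digests linear RNA and leaves circles, in the RNA isolation, while the study's sequencing methods speak of total RNA depleted of ribosomal RNA, so whether the sequenced RNA had been digested is not clear. The labels number the aortas within each diet, and the p-values below measure the spread between these 6 samples only.

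Zinc finger proteins of the C2H2 kind bind DNA through short folds, each held by a zinc ion between a pair of cysteines and a pair of histidines. Many carry a KRAB box, which recruits the co-repressor Trim28 and, with it, heterochromatin enzymes. A circRNA forms when the splice donor of an exon is joined back to the acceptor of the same or an earlier exon, so that a first exon, which has no acceptor, and a last exon, which has no donor, are usually left out. The Zfp symbol is a naming class rather than a pathway, and the 55 host genes do different things: Zfp36l1 binds AU-rich mRNA through CCCH fingers and promotes mRNA decay, Zfp207 works at the mitotic spindle, and Zfp423 and Zfp516 regulate fat cell fate.

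The back-splice junction is the only sequence that sets a circle apart from its linear mRNA. The junctions below belong to well-read circles of 5 genes described here and to 1 circle of a KRAB gene. Each has the last 15 bases of the circle in lower case and its first 15 bases in capitals, read 5′ to 3′ from GENCODE vM21 transcripts on GRCm38.
circRNA1454, Zfp644, chr5:106634831-106638635, minus strand: tgactgtgcactcagACTAAAGGTGTTAAA
mmu_circ_0011956, Zfp644, chr5:106619540-106638635, minus strand: cattctccgatgcagACTAAAGGTGTTAAA
circRNA2574, Zfp644, chr5:106634832-106666845, minus strand: tgactgtgcactcagGCTTGATTTAAATTT
mmu_circ_0001190, Zfp292, chr4:34839332-34839986, minus strand: tggataaagagaaagACACTTCTTGAATAT
mmu_circ_0000684, Zfp148, chr16:33421321-33434974, plus strand: gcactcaatgtccctGATAGAAGAGAAGAA
mmu_circ_0001698, Zfp827, chr8:79118175-79136663, plus strand: gagtgtctgctccagCGGAAAGCTACAAGG
mmu_circ_0010201, Zfp385b, chr2:77719451-77720699, minus strand: cgaacaccagcacagATGCTCTACATTTCA
circRNA5769, Zfp426, chr9:20473028-20476478, minus strand: agatagttttcccagGTCCTTCAGAGGACT
The first pair share their capitals, because both begin at exon 3 of Zfp644, and circRNA1454 and circRNA2574 share their lower-case part, because both end at exon 4. The junction letters of a pair of circles from 1 gene can therefore differ on 1 side only.

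A circle short enough to print whole shows what such an RNA can hold. mmu_circ_0006217 joins exons 6 and 7 of Zfp148 (chr16:33466855-33468183, plus strand), the gene of a GC-box binding transcription factor, into 208 coding nucleotides. The capitals mark the codons of its 2 whole C2H2 fingers, of the 4 in the protein.
mmu_circ_0006217: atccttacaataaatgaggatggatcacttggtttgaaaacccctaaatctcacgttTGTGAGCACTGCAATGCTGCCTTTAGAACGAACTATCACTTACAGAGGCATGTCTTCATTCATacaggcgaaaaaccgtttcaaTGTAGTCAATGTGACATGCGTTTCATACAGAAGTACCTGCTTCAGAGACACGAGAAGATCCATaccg
It had 6 reads, namely 1, 3 and 0 in HFD aortas versus 0, 1 and 1 in chow aortas.

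The libraries held few back-spliced reads. The totals were 4694 to 5621 reads in the HFD aortas and 7142 to 7585 in the chow diet aortas, so the reads of 1 gene are better compared as shares or normalized reads than as counts. An aorta without a read of a gene still allows a share of up to 0.0396% to 0.0639%, the 3 reads that a count of 0 allows, for counting error only. Host genes of smooth muscle markers took 0.185% to 0.320% of the reads under the HFD against 0.322% to 0.455% under chow. These shares did not overlap but nearly touched, and they came from 9 of 12 listed genes (Tagln, Cnn1 and Des had no entry). Myocd alone held 80 of the 123 reads of this list. Of its 6 tested genes, 0 passed the call criteria given below. Cald1 and Lmod1 had reads under the HFD only, and Smtn and Synpo2 under chow only. Leukocyte marker genes took 0.170% to 0.196% and 0.0840% to 0.171%, which overlapped, from 6 of 10 listed genes. The part of these levels in the results below was not tested. In such bulk samples fewer cells of a type and less RNA per cell cannot be told apart.

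Zfp circRNAs had a higher mean share of the back-spliced reads on the HFD, and the groups overlapped. The 3 HFD aortas held 96, 117 and 82 Zfp reads, and the 3 chow diet aortas held 102, 111 and 126. As a share of all back-spliced reads this was 2.05% (95% Wilson interval 1.68% to 2.49%), 2.08% (1.74% to 2.49%) and 1.68% (1.36% to 2.08%) on the HFD. On the chow diet it was 1.34% (1.11% to 1.63%), 1.55% (1.29% to 1.87%) and 1.69% (1.42% to 2.00%). The means were 1.94% ± 0.221 (SD, n = 3) and 1.53% ± 0.172 (SD, n = 3), a difference of 0.408 percentage points, and the lowest HFD aorta lay just below the highest chow diet aorta. No test was run on this share, since it is a score over the members. Without Zfp644, the gene with most reads, it was 1.38% ± 0.269 and 1.09% ± 0.225. The number of Zfp genes with a read was 18 to 22 per HFD aorta and 23 to 24 per chow diet aorta, alongside the larger totals of the latter.

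**Figure D1:**
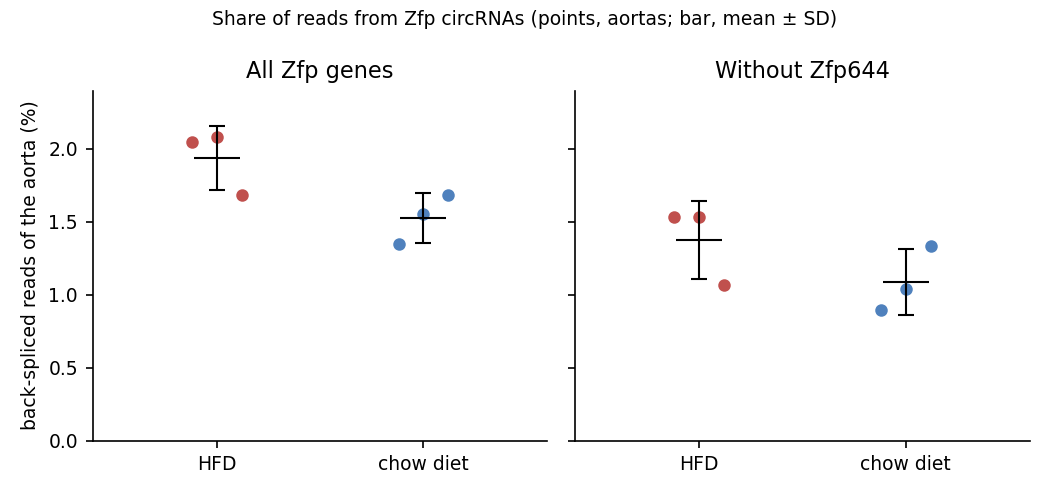
Share of all back-spliced reads that came from Zfp circRNAs, in percent, for each aorta on the HFD (red) and the chow diet (blue), with all Zfp genes (left) and without Zfp644 (right). Points are aortas and the bars are the mean and SD of 3; the HFD mean is 1.94% against 1.53%, and the groups touch at 1.68% and 1.69%.

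Most Zfp circRNAs were rare. Of the 117 entries, 46 had 1 read over the 6 aortas and 77 had reads in 1 aorta only (65.8%, against 74.5% of the other entries). Those with at least 10 reads numbered 20, or 17.1% against 5.94%. Reads were concentrated in a few genes: Zfp644 held 182, Zfp532 83 and Zfp827 62, which together was 51.6% of the Zfp reads, and the 10 leading genes held 76.0%. Zfp644 stood at rank 12 of all 3981 host genes. At the other end, 34 of the 55 genes had at most 3 reads. GENCODE vM21 lists 417 Zfp genes with a digit, of which 13.2% had a circRNA entry here outside Zfp609.

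Circles of Zfp genes had few exons. Of the entries, 111 were exonic and 6 were intron-derived (ciRNA). The median deposited exon number of the exonic entries was 3, against 4 for the 8881 exonic entries of other genes. The mean was 3.36 ± 1.90 (SD) against 4.88 ± 3.88 (SD). The medians were 3 and 3 among entries with reads in at least 2 aortas, and again 3 and 3 when each entry was weighted by its reads. Circles of 3 exons were 32.4% of the Zfp entries and 18.8% of the others, and they held 38.7% and 19.4% of the exonic reads. Circles of 8 or more exons were 3.6% and 15.9% of entries. The longest by exon number were circRNA6548 of Zfp236 with 11 exons, circRNA272 of Zfp410 with 10, and circRNA8674 of Zfp462 and mmu_circ_0007566 of Zfp236 with 9 each. Each of these had 1 read. Next came 4 circles tied at 7 exons, and mmu_circ_0015000 of Zfp827 had the most reads of them, 5.

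**Figure D2:**
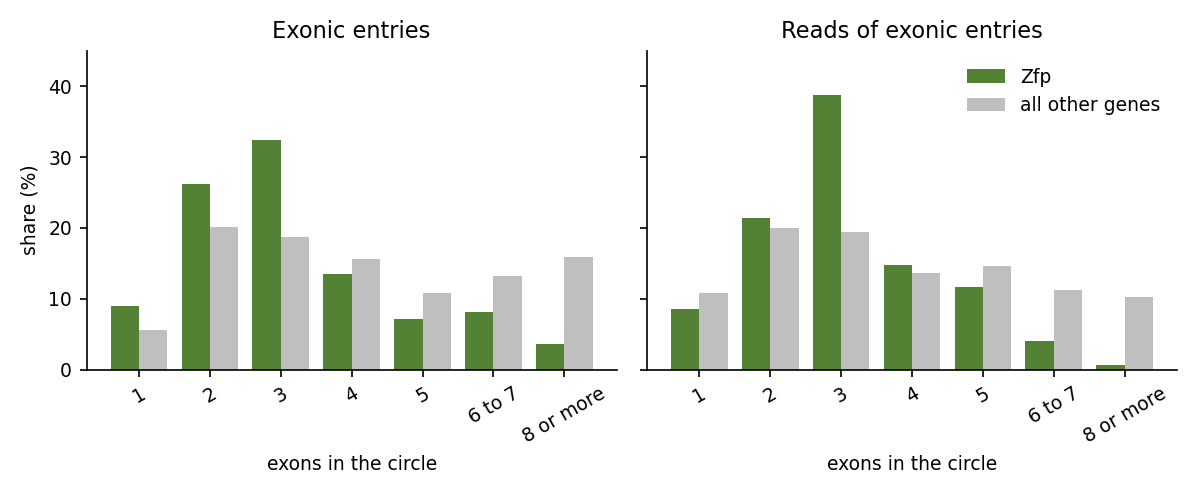
Share of exonic entries (left) and of their reads (right), in percent, by the number of exons in the circle, for Zfp genes (green) and all other host genes (grey). The bar at 3 exons stands at 32.4% against 18.8% of entries and 38.7% against 19.4% of reads.

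The host transcripts on which Zfp circles could be placed had a median of 9 exons, against 17 for other genes, and the median length per circle exon was 180 nt against 134.5 nt. The median placed circle was 622 nt against 549 nt, so that fewer exons did not go with a shorter circle. The part of transcript structure in the exon number was not tested. Exon number did not move with diet beyond the spread: the mean number of exons per Zfp read was 3.16 ± 0.0729 (SD, n = 3) under the HFD against 3.20 ± 0.111 (SD, n = 3) under chow, with overlapping aortas. In the other genes it was 4.18 ± 0.0675 and 4.26 ± 0.104.

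Of the 111 exonic Zfp circles, 103 had both ends at exon ends of 1 annotated transcript, 94 of them exactly and 9 with a start 1 base past the exon start. Of these, 0 contained the first exon and 0 the last. In 51 (49.5%) the circle began at exon 2, against 28.7% of the 8664 placed circles of other genes. In 22 (21.4%) the circle ended at the next-to-last exon, against 12.4%. The host transcripts had a median of 9 exons against 17, and the part of this in both shares was not tested. The start codon lay in 39 of the 103, and 57 were coding throughout, 28 of them with a length that is a multiple of 3.

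Circles of KRAB genes and of other C2H2 genes were described apart. Among the 55 host genes, 13 matched a KRAB A box pattern, and in all 13 the C2H2 fingers lay in a single exon. Of the other 40 coding C2H2 genes, 12 had their fingers in a single exon. The KRAB genes gave 15 placed circles with 39 reads, of which 13 held the KRAB box and 0 held a whole finger. Their other 2 exonic circles, circRNA2596 and circRNA8133 of Zfp871, reached into the last exon and held 13 of the 52 exonic KRAB reads. The other C2H2 genes gave 86 placed circles, and 51 of them (59.3%) held at least 1 whole finger. A circle without the last exon cannot hold fingers encoded there, and no placed circle holds a last exon. For 14 of the 15 placed KRAB circles the fingers lay in the last exon, so the 0 follows from the placement and is not a difference between the classes. In Zfp809 they lay in exon 5 of 6, and its circle circRNA8892 (1 read) joins exons 2 and 3. Among placed circles, the median length was 316 nt (186 to 850 nt) for KRAB genes and 757 nt (125 to 7053 nt) for the other genes. The 2 Zfp871 circles that reach into the last exon are not among these lengths. No placed circle holds a last exon, and the part of this in the lengths was not tested. The placed KRAB circles with most reads were mmu_circ_0014186 of Zfp141 (3 exons, 476 nt, 10 reads) and circRNA5769 of Zfp426 (3 exons, 287 nt, 10 reads). Zfp445, which maintains imprinted methylation, had 4 reads, all in 1 HFD aorta, with 2 each for 2 circles.

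The remaining 8 exonic circles had 1 end away from any annotated exon end, and they held 115 of the 615 exonic Zfp reads, or 18.7% against 5.44% in other genes. In 7 of the 8 that end lay inside the last exon of the gene's longest coding transcript, and in circRNA8086 of Zfp462 it lay in the first. Zfp644 had 3 of them, all ending at chr5:106618072. Their deposited exon numbers need not match their spans on this transcript. circRNA2573 was deposited with 3 exons and runs from exon 2 into exon 6, and circRNA2572 with 5 exons and runs from exon 3 into exon 6. circRNA2580 was the only entry of Zfp438, the gene of a transcriptional repressor. circRNA2596 of the KRAB gene Zfp871 spanned from exon 2 into the last exon, with the KRAB box and all 15 fingers within its ends. It had 10 of the gene's 13 reads, and circRNA8133, which also ends in the last exon and spans 14 of the fingers, had the other 3.

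**Figure D3:**
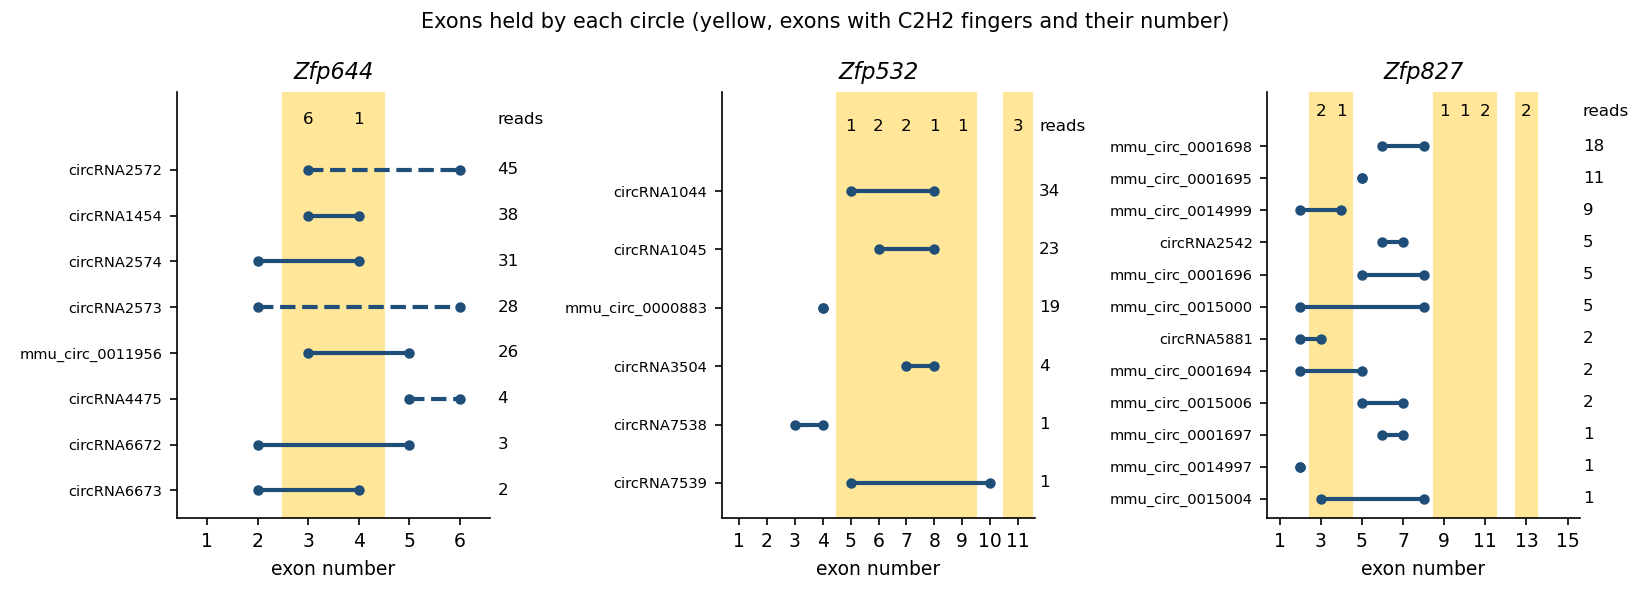
Exons joined by each exonic circle of Zfp644, Zfp532 and Zfp827, by exon number on the longest coding transcript of each gene. Dots are the circle's ends, dashed lines are circles with 1 end inside an exon, yellow columns are exons with C2H2 fingers (their number above), and the right-hand column gives reads over 6 aortas. The leading Zfp644 circles cross the finger exons 3 and 4, while the leading Zfp827 circles lie between the finger exons. 1 Zfp644 circle with 2 reads, whose acceptor exon is absent from this transcript, is not drawn.

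Zfp644 encodes a partner of the histone methyltransferase pair G9a and GLP. Its circles had 24, 31 and 30 reads in HFD aortas versus 34, 37 and 26 in chow aortas. The normalized reads overlapped, with 31.9 ± 2.58 (SD, n = 3) for the HFD against 29.2 ± 6.41 (SD, n = 3) for chow. The log2 fold change of HFD over chow diet was 0.13 with an SE of 0.32, and edgeR gave an adjusted p = 0.953. No single circle dominated, and 5 circles held 26 to 45 reads each. circRNA2572, which runs from exon 3 into the last exon, led with 45 reads (24.7%), namely 10, 6 and 5 under the HFD versus 13, 5 and 6 under chow. circRNA1454, of exons 3 and 4 (3632 nt, all coding, all 7 fingers), had 8, 10 and 7 reads under the HFD versus 5, 1 and 7 under chow. After normalization these were 9.31 ± 0.836 and 3.87 ± 2.67 (SD, n = 3) and did not overlap, while the counts themselves met at 7. Such separation was seen in 6.67% of the 2564 entries tested and in 3 of the 40 Zfp entries among them (7.5%), a share near the background. The log2 fold change was 1.24 with an SE of 0.81, and it was not called in edgeR (adjusted p = 0.577). With each aorta left out in turn it ran from 0.73 (without chow 2, where circRNA1454 had 1 read) to 1.71 (without chow 3).

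The other leading circles of Zfp644 went unevenly over the aortas. circRNA2573 had 0, 0 and 7 reads under the HFD versus 6, 9 and 6 under chow (log2 fold change -1.18, edgeR adjusted p = 0.75). It passed the call criteria with limma (log2 fold change -1.91, adjusted p = 0.504) and without HFD 3, the only HFD aorta with its reads. circRNA2574 had 0, 6 and 6, and 6, 10 and 3, and 2 reads in HFD 1 were listed under circRNA6673, whose start is 1 base earlier. mmu_circ_0011956 had 2, 8 and 5, and 4, 3 and 4. Each overlapped between the diets. Grouped by the exon at which the circle begins, those from exon 3 had 20, 24 and 17 reads under the HFD versus 22, 9 and 17 under chow. Those from exon 2 had 4, 7 and 13 reads, and 12, 19 and 9. After normalization those from exon 3 were 22.7 ± 1.95 against 14.4 ± 6.06 (SD, n = 3), with the lowest HFD aorta at 20.6 and the highest chow diet aorta at 20.3, and those from exon 2 overlapped. As a part of the gene's reads, circles from exon 3 held 72.5% ± 14.0 and 51.5% ± 23.5 (SD, n = 3), which overlapped. These groups were formed after their values were seen and were not tested.

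Zfp532 gave the 1 circle called between the diets. Calls used an unadjusted p below 0.05 and an absolute log2 fold change above 1, as the study did, in edgeR. Of 2564 entries with reads in at least 2 aortas, 4.06% were called, and of the 40 Zfp entries among them 1 was called (2.5%), a share not above the background. circRNA1044 (chr18:65638750-65656632, plus strand) joins exons 5 to 8 of Zfp532, 804 coding nt with 6 of the protein's 10 fingers. It had 11, 10 and 5 reads in HFD aortas versus 2, 1 and 5 in chow aortas. Normalized, these were 9.67 ± 3.40 (SD, n = 3) and 2.37 ± 1.78 (SD, n = 3), with every HFD aorta above every chow diet aorta, while the counts themselves met at 5. The log2 fold change was 1.97 with an SE of 0.88, and edgeR's adjusted p = 0.577 over all entries did not pass a threshold of 0.05. The call was lost without HFD 1 (log2 fold change 1.74), HFD 2 (1.84), chow 1 (1.81) or chow 2 (1.54), as the unadjusted p then rose above 0.05. The number of Zfp entries called rose to 3 of 39 without HFD 3 (7.69%, against 2.63% of all entries), with circRNA2573 and circRNA2580 beside circRNA1044. With entries 1 base apart summed, 3.40% of 2646 circles were called and circRNA1044 was again the 1 Zfp circle called of 41 (edgeR adjusted p = 0.606). Other settings of these sums called 1 to 3 Zfp circles, given with their background shares in the closing section.

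Within Zfp532 the reads were divided differently between the circles in the 2 diets, and the gene sum was not called. circRNA1044 held 11 of 18, 10 of 14 and 5 of 9 reads of the gene on the HFD, and 2 of 7, 1 of 8 and 5 of 27 on the chow diet. These shares were 62.7% ± 8.05 and 19.9% ± 8.12 (SD, n = 3), a description that rests on the circle being called. The other circles of the gene had 7, 4 and 4 reads under the HFD versus 5, 7 and 22 under chow. circRNA1045, of exons 6 to 8, ends at the same donor and lacks exon 5. It had 5, 0 and 0 reads under the HFD versus 3, 1 and 14 under chow, so 14 of its 23 reads were in chow 3. Its log2 fold change of -1.42 (SE 1.10, edgeR adjusted p = 0.656) came to 0.02 without chow 3. Without HFD 1, the only HFD aorta with its reads, it came to -5.48 and the circle passed the call (edgeR adjusted p = 0.577). mmu_circ_0000883 is exon 4 alone, 2351 nt with the start codon and 0 fingers, and had 2, 2 and 2 reads, and 1, 5 and 7. The gene sum was 18, 14 and 9 reads under the HFD versus 7, 8 and 27 under chow. In normalized reads this was 15.6 ± 5.88 and 12.3 ± 9.42 (SD, n = 3), log2 fold change 0.32 with an SE of 0.46, edgeR adjusted p = 0.953. Without chow 3 the gene would be called (log2 fold change 1.30, edgeR adjusted p = 0.58).

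**Figure D4:**
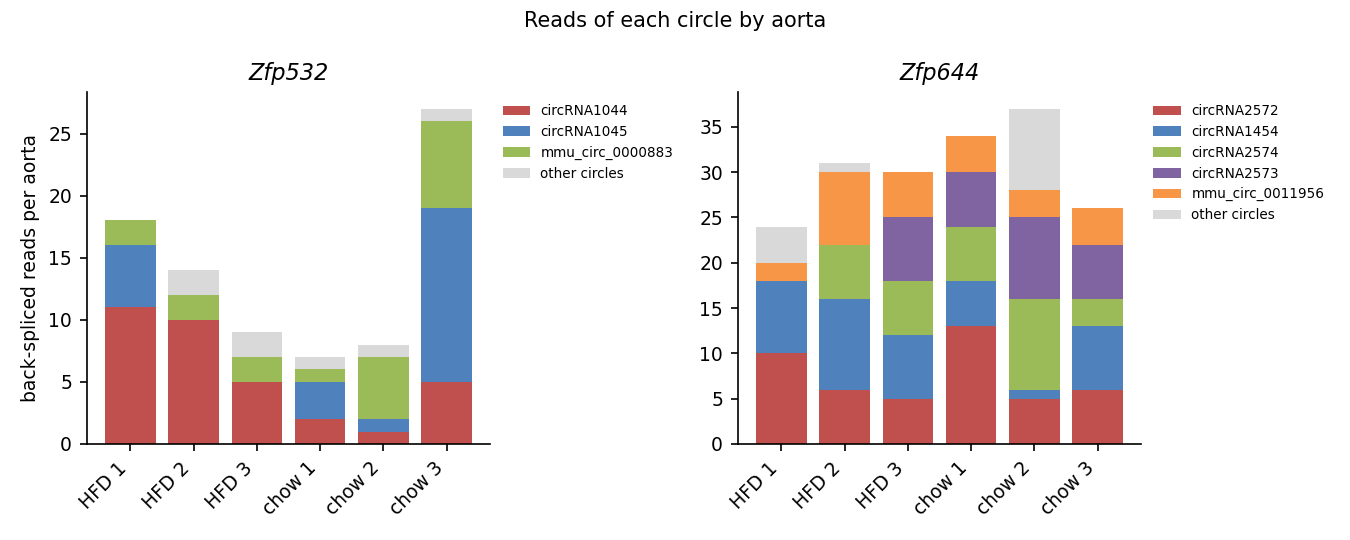
Back-spliced reads of each circle of Zfp532 (left) and Zfp644 (right) in each aorta, stacked, as deposited counts. circRNA1044 (red, left) holds 11, 10 and 5 reads on the HFD against 2, 1 and 5 on the chow diet, and chow 3 holds 14 reads of circRNA1045 (blue, left).

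Zfp827, which has been linked to telomere chromatin, had the most entries, 12. Zfp644 followed with 10, and Zfp236, Zfp532 and Zfp638 had 7 each. Zfp827 reads were 4, 13 and 8 under the HFD versus 18, 11 and 8 under chow, which overlapped (log2 fold change -0.25, SE 0.54, edgeR adjusted p = 0.953). Its circles began at 3 main exons, namely exon 2 (19 reads), exon 5 (18 reads) and exon 6 (24 reads). The leading circle was mmu_circ_0001698, of exons 6 to 8 (402 nt), with 2, 1 and 3 reads under the HFD versus 3, 4 and 5 under chow. Its circles held at most 3 of the protein's 9 fingers, and those with any finger began at exon 2 or exon 3.

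In 13 Zfp genes with at least 10 reads and at least 2 entries, the dominant circle held a median of 66.7% of the reads, against 50.0% in 807 other genes. The order turned to 35.1% against 54.4% in genes with at least 20 reads, and to 45.5% against 54.6% with entries 1 base apart summed. By single entries the share ranged from 24.7% in Zfp644 to 90.9% in Zfp704. In Zfp148 mmu_circ_0000684 (exons 2 to 4, 567 nt, with the start codon and 0 fingers) had 26 of 36 reads, namely 3, 4 and 2 under the HFD versus 3, 9 and 5 under chow. In Zfp292 mmu_circ_0001190 (exons 2 to 4, 370 nt, 0 of 14 fingers) had 27 of 31 reads. In Zfp516 mmu_circ_0000909, which is exon 2 alone (1926 nt, 8 of 10 fingers), had 10 of 15. mmu_circ_0001110 of Zfp704 (exons 3 and 4, 331 nt) had 10 of 11. In Zfp236, by contrast, circRNA1072 (exons 2 to 6, 785 nt, 8 of 30 fingers) was the entry with most reads, 7 of 24, and 5 of the 7 entries began at the same exon. With entries 1 base apart summed, circRNA3517 and circRNA8114 (6 and 4 reads) made the leading circle with 10 of 24.

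The dominant circle of Zfp292 was listed under 2 entries. mmu_circ_0001190 had 4, 10 and 0 reads under the HFD versus 5, 3 and 5 under chow, and circRNA9002, whose start is 1 base later, had 4 reads in HFD 3 and 0 elsewhere. There were 6 such Zfp pairs, in Zfp236, Zfp644, Zfp292, Zfp827, Zfp638 and Zfp141, and in 0 of the 6 did an aorta have reads of both entries. Over the table this held for 468 of 475 pairs, and in all 475 the later entry was the one listed under an Ensembl id. A 0 for either entry of such a pair therefore does not show that the circle was missing, and the gene sums do not depend on which entry took the reads.

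Summed by gene, 0 of 27 tested Zfp host genes were called, against 4.46% of 2240 genes tested. At an unadjusted p below 0.05 the count was 0 by edgeR and 0 by DESeq2, and the smallest adjusted p in edgeR was 0.674. Without HFD 1 the count was 2 of 23 (8.70%, against 5.72% of all genes), and without HFD 3 it was 2 of 24 (8.33%, against 4.19%). The median log2 fold change of the 27 was 0.06, with 14 positive, and that of all 2240 genes was -0.17. Library size alone in place of TMM put these medians at 0.25 and 0.02. Normalized reads did not overlap between the diets in 2 of the 27 (7.41%, against 9.55% of all genes tested). Zfp292 had 4, 10 and 4 reads under the HFD versus 5, 3 and 5 under chow, which normalized to 6.61 ± 3.27 and 3.86 ± 0.890 (SD, n = 3; log2 fold change 0.77, SE 0.76, edgeR adjusted p = 0.932). Zfp385b, whose only circle mmu_circ_0010201 joins exons 2 and 3 with the start codon, had 2, 0 and 0 reads under the HFD versus 3, 3 and 4 under chow. Its log2 fold change was -1.80 with an SE of 1.42 (edgeR adjusted p = 0.796). Without HFD 1, the only HFD aorta with its reads, this was -4.65 and the gene passed the call (edgeR adjusted p = 0.746).

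**Figure D5:**
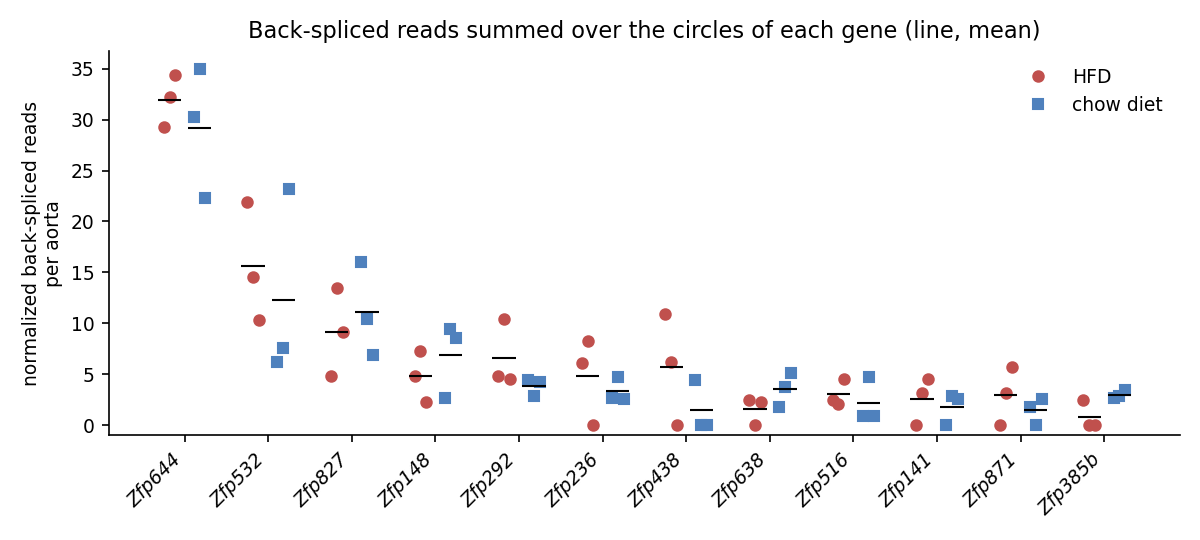
Normalized back-spliced reads per aorta, summed over the circles of each gene, for the 12 Zfp genes with the most reads, on the HFD (red circles) and the chow diet (blue squares), with a line at each mean. The diets separate in Zfp292 and Zfp385b only among those drawn, and 0 of them were called.

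Reads of the remaining leading genes overlapped between the diets. Zfp438 had 9, 6 and 0 reads under the HFD versus 5, 0 and 0 under chow, so 3 aortas held every read. Its log2 fold change was 1.85 with an SE of 1.02 (edgeR adjusted p = 0.674). The gene passed the call without HFD 3 (log2 fold change 2.50). It also did so without chow 1, the only chow diet aorta with reads (log2 fold change 5.50). Zfp148 had 4, 7 and 2, and 3, 10 and 10. Zfp236 had 5, 8 and 0, and 3, 5 and 3. Zfp638, which binds RNA and silences unintegrated viral DNA, had 2, 0 and 2, and 2, 4 and 6, with mmu_circ_0013548 leading at 5 reads. In this last gene the only HFD aorta without a read was HFD 2.

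Zfp516 had 2, 2 and 4 reads under the HFD versus 1, 5 and 1 under chow. Zfp407 had 7, 2 and 0, and 1, 1 and 0, led by circRNA6549 (exons 2 and 3, 16 of 22 fingers). Zfp426 had 2, 2 and 0, and 0, 0 and 8. Zfp516 had reads in all 6 aortas, while 7 of the 11 Zfp407 reads and 8 of the 12 Zfp426 reads were in 1 aorta. Zfp141 (0, 3 and 4, and 0, 3 and 3), Zfp871 (0, 3 and 5, and 2, 0 and 3) and Zfp704 (3, 2 and 0, and 2, 3 and 1) also had reads under both diets. Zfp68 had a single intron-derived entry, ciRNA75, with 4, 0 and 0 reads, and 2, 4 and 2. The last of the 20 leading genes had 4 to 9 reads. They were Zfp362 (2 and 7 reads by diet, led by mmu_circ_0011215), Zfp207 (1 and 6, circRNA4835), Zfp423 (1 and 3, led by mmu_circ_0015092) and Zfp445 (4 and 0, with 2 reads each for circRNA7975 and mmu_circ_0001863). Zfp462, tied with the last pair at 4 reads, had 4 and 0, led by circRNA8086.

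Host genes of the KRAB co-repressor complex and of heterochromatin and DNA methylation enzymes were read alongside. Of 31 listed genes, 16 had a circRNA, with 203 reads in all, and Trim28 itself, Cbx1, Cbx3 and Cbx5 had none. Of the 11 tested, 1 was called, against 4.46% of all 2240 genes tested. This was Dnmt3a, the gene of a DNA methyltransferase. It had 9, 2 and 0 reads under the HFD versus 0, 0 and 1 under chow (log2 fold change 3.38, SE 1.47, edgeR adjusted p = 0.674). The 11 genes had a median log2 fold change of 0.32, against -0.17 for all genes tested. Fam208a, the older symbol of the HUSH subunit gene Tasor, led with 51 reads, at 4, 15 and 7 under the HFD versus 12, 2 and 11 under chow. Ehmt1, which encodes GLP, had 2, 6 and 5, and 3, 3 and 6. Both overlapped between the diets.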

How the data were processed

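Back-spliced reads of 6 aortas were used, 3 per diet, grouped by the labels. The authors cleaned reads with Cutadapt, searched the unmapped ones for back-splices (TopHat-Fusion) and built circRNAs in CIRCexplorer and CIRI. Versions, the build and how both callers were joined are not given in the sources used here, but both ends of all 7896 non-ciRNA entries listed by gene symbol lie on GRCm38 exon ends, while 954 of 1096 listed by Ensembl id start 1 base after an exon start. The deposited counts are back-spliced reads per circRNA without normalization. The deposited signal, SRPBM, is each count scaled by a library depth, and was used in 2 alternatives only, limma on log2 SRPBM and the depth implied by its ratio to the counts. The deposited fold changes, p-values and q-values were not used.

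The members and lists were chosen with earlier results of these data known. Counts were tested with edgeR 4.0.16 (quasi-likelihood, TMM, R 4.3.3), HFD against chow diet, over all features with reads in at least 2 of 6 aortas, with Benjamini-Hochberg adjustment over all of them. Gene sums and entries 1 base apart were tested alike. Standard errors are the log2 fold change over the root of F. Normalized reads are counts divided by effective library size, scaled to its mean. The fit was also run on simulated counts with a fixed dispersion and large changes, which does not show how it performs on these data. Replicate numbers did not pair the aortas (correlations -0.020, -0.020 and -0.024). Alternatives used DESeq2 1.42.0, limma 3.58.1, other scalings and filters, and each aorta left out.

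Named are the 20 Zfp genes with most reads with their leading circle, every called member, the 5 circles with most exons and the 5 genes with most entries. Other circles and genes are named where a count of 5 or fewer, a shared end or a printed sequence called for it, chosen after their values were seen. Circles were placed on GENCODE vM21 transcripts. Fingers (C2H2 pattern) and KRAB boxes were found by letter patterns in proteins translated from each gene's longest coding GENCODE transcript, in place of the planned RefSeq proteins, and boxes that depart from the pattern are missed. Read intervals cover counting error only.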

Additional observations from a re-analysis of the deposited data

How the results depend on the processing

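The number of Zfp circles called was 1 with library size alone, the authors' depth, DESeq2, no filter, either stricter filter (at least 3 aortas or 10 reads) and entries 1 base apart summed, 2 of 40 with limma on log2 SRPBM (circRNA1044 and circRNA2573; 3.63% of all entries), and 0 to 3 when each aorta was left out in turn (0 without HFD 2 or chow 2, 3 of 39 without HFD 3, 7.69% against 2.63%, namely circRNA1044, circRNA2573 and circRNA2580). The replicate block, for numbers that do not pair the aortas, also gave 1 (2.50%), while the calls over all entries went from 104 to 30 (1.17%). DESeq2 called 23 of all entries and the filter on at least 10 reads 49. The number of Zfp genes called was 0 under the replicate block and every other setting but library size alone, which gave 1 (Zfp438), and it was 0 to 2 with an aorta left out (2 without HFD 1, 8.70% against 5.72% of all genes, or without HFD 3, 8.33% against 4.19%). circRNA1044 kept its direction in all 15 alternatives, with log2 fold changes of 1.54 to 2.70 and adjusted p of 0.438 to 0.999. TMM put the median log2 fold change of all entries at -0.18 and library size alone at 0.04, and moved the calls from 33 higher and 71 lower to 40 and 43.

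The difference in Zfp share stayed positive, at 0.287 to 0.535 percentage points, under every alternative run, each less than the spread of 0.198 percentage points away from the reported 0.408. The median exon number of Zfp circles stayed at 3, but that of other genes went from 4 to 3 for entries in at least 2 aortas and when weighted by reads. The median share of the dominant circle came to 35.1% over the 6 genes with at least 20 reads and to 45.5% over 11 genes with entries 1 base apart summed, against 54.4% and 54.6% in other genes, so its place above other genes was not kept.

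Directions turned for several values that were not called. With each aorta left out in turn, the log2 fold change of circRNA2572 ran from -0.22 to 0.66, that of circRNA2574 from -0.80 to 0.22, that of mmu_circ_0001190 from -0.78 to 0.97 and that of the Zfp532 gene sum from -0.0065 to 1.30. That of circRNA1045 ran from -5.48, a fit against HFD aortas without reads, to 0.023. For mmu_circ_0001190, limma gave -0.30 and the replicate block -0.080, while with circRNA9002, 1 base apart, summed in it was 0.80, and the Zfp292 gene sum kept its direction at 0.35 to 1.04. The cause was not tested. The 117 entries shared 634 reads, and 46 of them had 1 read. The size of change detectable at this depth was not computed.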
